A study of Mus musculus with 8 samples.

Results

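The genes described here are 10 Wnt receptor and feedback genes of the intestinal stem cell, taken by symbol from a deposited table of 17634 genes: Lgr4, Lgr5, Rnf43, Znrf3, Axin2, Apcdd1, Tcf7, Tcf7l2, Lef1 and Ascl2. All 10 were in the table, and 9 of them passed the filter on low counts, Lef1 being the exception. RNA came from C57BL/6N small intestinal crypts at day 3 after irradiation, as 4 libraries from miR-29ab1-/- mice (KO) and 4 from wild-type mice (WT), so irradiation is common to both groups. The KO mice lack the locus of miR-29a and miR-29b-1, and the labels name no cell-specific promoter or Cre. Mouse age, radiation dose and whether a library is 1 animal or a pool are not stated in the sources used here. Each p-value therefore rests on the spread between these samples, which may be technical.

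Wnt ligands bind Frizzled receptors and LRP co-receptors, which keeps beta-catenin from being destroyed and lets it act with TCF/LEF factors on target genes. At the crypt base, R-spondins bind Lgr4 and Lgr5 and withdraw the membrane E3 ligases Rnf43 and Znrf3, which otherwise remove Frizzled from the cell surface. Many of these genes are Wnt targets themselves and feed back on the pathway: Axin2, Rnf43, Znrf3 and Apcdd1 restrain it, while Lgr5 and Ascl2 mark the stem cells that depend on it.

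The sequences of the deleted miRNAs are shown because the seed, bases 2 to 8, sets which transcripts they can pair with. They are RefSeq mature sequences on GRCm38.p6, with the seed in capitals. miR-29a-3p lies at chr6:31062673-31062694 on the minus strand, and miR-29b-3p of Mir29b-1 at chr6:31063025-31063047 on the same strand. miR-29b-3p is also made from Mir29b-2, and miR-29c-3p from Mir29c, both on chromosome 1 and outside the deleted locus.
miR-29a-3p: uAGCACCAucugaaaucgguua
miR-29b-3p: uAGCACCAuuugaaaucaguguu
miR-29c-3p: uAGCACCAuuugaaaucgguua
All of them share the seed AGCACCA. Its match, TGGTGCT, occurs in the longest 3′ UTR (GENCODE M21) of 15.54% of the 12648 tested genes with an annotated one, and in 2 of the 10 members, Rnf43 and Apcdd1. The match of Rnf43 starts 578 bases after the stop codon in a 3′ UTR of 1340 bases, at chr11:87734762-87734786 on the plus strand of GRCm38 with its flanks, and is printed here with the match in capitals.
Rnf43 site: taccttctccctggcTGGTGCTcag
The match of Apcdd1 starts 1210 bases after the stop codon of a 3′ UTR of 8901 bases. Rnf43 was not called between the genotypes, and Apcdd1 was higher in KO. A match is a sequence feature, and whether miR-29 acts on either transcript was not tested. Mir29a and Mir29b-1 were not listed in the count table, so the deletion was not checked through them.

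Of the 9 tested members, 4 were lower in KO crypts (Ascl2, Lgr5, Znrf3 and Tcf7), 2 were higher (Apcdd1 and Tcf7l2) and 3 were not called (Lgr4, Rnf43 and Axin2), by edgeR's quasi-likelihood test with Benjamini-Hochberg adjustment over 12908 genes at a threshold of 0.05. Over all tested genes 47.3% were called, 23.1% lower and 24.2% higher. With TMM factors the groups did not overlap for 4 members, against 45.4% of all tested genes. The median log2 fold change of the 9 was −0.30, beside 0.03 over all tested genes. With scaling to total counts alone the median over all genes moved to −0.23 and 65.8% of the called genes were lower, against 48.7% with TMM factors; 5 members were then lower and 1 higher. The count of members called lower was 2 without WT replicate 1 or without WT replicate 4, and 1, Ascl2, without KO replicates 1 and 2, while 2 members were higher in each of these fits.

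**Figure D1:**
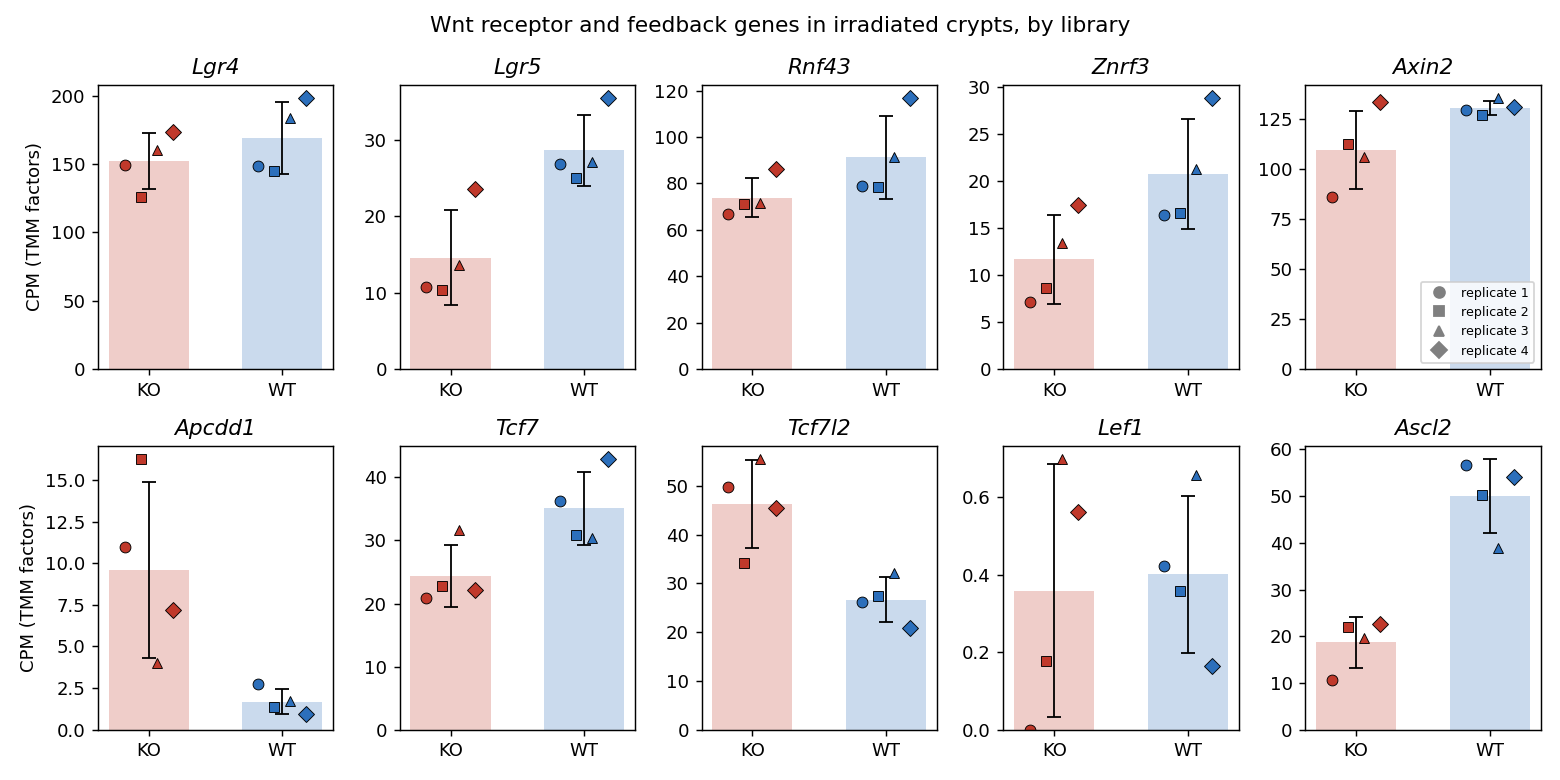
Level of each gene in CPM, which are counts scaled to the library total with TMM normalisation factors (y axis from 0, one scale per gene), in KO (red, left) and WT (blue, right) crypts. Points are libraries with their replicate number by shape, bars are means of 4 libraries and error bars are SD. The KO and WT points of Ascl2, Lgr5, Tcf7l2 and Apcdd1 do not overlap, and those of Lgr4, Rnf43, Znrf3, Axin2, Tcf7 and Lef1 do. The deposited values per gene length differ from this for Tcf7l2, Znrf3 and Axin2, as given below.

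Libraries held 9481201 to 14612798 counts in KO and 10719668 to 16231099 in WT. The 10 most abundant genes took 6.02 to 9.66% of counts in KO and 4.69 to 5.12% in WT, with KO replicates 1 and 2 highest, and the member results were therefore also computed without those libraries. Summed counts of 4 Y-linked genes were 1 and 3 in replicate 4 of KO and WT, and 1285 to 2061 in the other 6 libraries. Replicate 4 thus stands apart in both groups, and replicates 1 to 3 were also fitted alone. Within them the log2 fold change was −1.51 for Ascl2, −1.23 for Lgr5, −0.95 for Znrf3, 0.65 for Tcf7l2 and 2.40 for Apcdd1, all still called, while Tcf7 lost its call as given below. Replicate 4 holds 1 library per group and gives no test.

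The receptors come first. Lgr5, an R-spondin receptor and the defining marker of crypt base columnar stem cells, had 10.7, 10.3, 13.7 and 23.6 CPM in the KO libraries, against 26.9, 25.02, 27.1 and 35.4 CPM in the WT libraries. Every KO library lay below every WT library, and KO replicate 4 came closest to the WT libraries. The mean was 14.6 ± 6.18 CPM in KO and 28.6 ± 4.63 CPM in WT (SD, n = 4 each), a log2 fold change of −0.97 (SE 0.26, 95% interval −1.57 to −0.38), with an adjusted p of 0.0143 in edgeR's quasi-likelihood test. Without KO replicates 1 and 2 the log2 fold change of Lgr5 was −0.68 and the call was lost (edgeR, adjusted p = 0.0858). In bulk crypt RNA, fewer stem cells and less of a transcript per cell cannot be told apart.

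Lgr4, the broadly expressed relative of Lgr5 that binds the same ligands, had 149, 126, 161 and 174 CPM in KO and 148, 145, 184 and 198 CPM in WT. The ranges overlapped over most of their width. Its log2 fold change was −0.15 with a 95% interval of −0.49 to 0.19 (edgeR, adjusted p = 0.435). This interval leaves out the −0.97 measured for Lgr5 but overlaps the Lgr5 interval of −1.57 to −0.38. Whether the changes of the receptors differ was not tested. Per gene length, Lgr4 was the more abundant receptor in every library. The ratio of Lgr5 to Lgr4, in FPKM, counts scaled to gene length and library size,, was 0.0774 to 0.146 in KO and 0.159 to 0.195 in WT. A ratio within a library does not move with the scaling between libraries, and the 4 KO ratios were all below the 4 WT ratios.

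Of the membrane ligases, Znrf3 was called lower and Rnf43 was not. Znrf3 had 7.12, 8.66, 13.5 and 17.5 CPM in KO and 16.3, 16.6, 21.3 and 28.8 CPM in WT. The highest KO library, replicate 4, lay above the lowest WT libraries, so the groups overlapped, while within each of the 4 replicate numbers KO was below WT. In FPKM, which carry no TMM factors, the groups lay just apart, at 0.82 to 2.45 in KO and 2.49 to 4.68 in WT. The means were 11.7 ± 4.72 CPM in KO and 20.8 ± 5.82 CPM in WT (SD, n = 4 each), with a log2 fold change of −0.83 (SE 0.30) and an adjusted p of 0.0478 by edgeR, just inside the threshold. Leaving out KO replicate 1 or 2, or any 1 of the WT libraries, ended the call of Znrf3 (edgeR, adjusted p 0.0529 to 0.129), and so did leaving out KO replicates 1 and 2 together (−0.49, adjusted p = 0.213) and testing only genes with a mean of at least 50 counts (−0.80, adjusted p = 0.0553). In the fit with a replicate block Znrf3 was called lower at −0.87 (edgeR, adjusted p = 0.00214).

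Rnf43, the more abundant of the ligases, had 66.7, 71.2, 71.4 and 86.3 CPM in KO and 78.7, 78.3, 91.2 and 117 CPM in WT. Only KO replicate 4 reached into the WT range. The log2 fold change was −0.30 (95% interval −0.65 to 0.04) and was not called (edgeR, adjusted p = 0.126). Rnf43 was called lower in the fit with a replicate block (−0.29, adjusted p = 0.0282) and with scaling to total counts (−0.57, adjusted p = 0.0449). Per gene length, the ratio of Znrf3 to Rnf43 was 0.0663 to 0.126 in KO and 0.131 to 0.158 in WT, again without overlap. The summed FPKM of the Lgr receptors over that of the ligases, by contrast, was 1.57 to 1.97 in KO and 1.56 to 1.82 in WT, and these ranges overlapped.

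**Figure D2:**
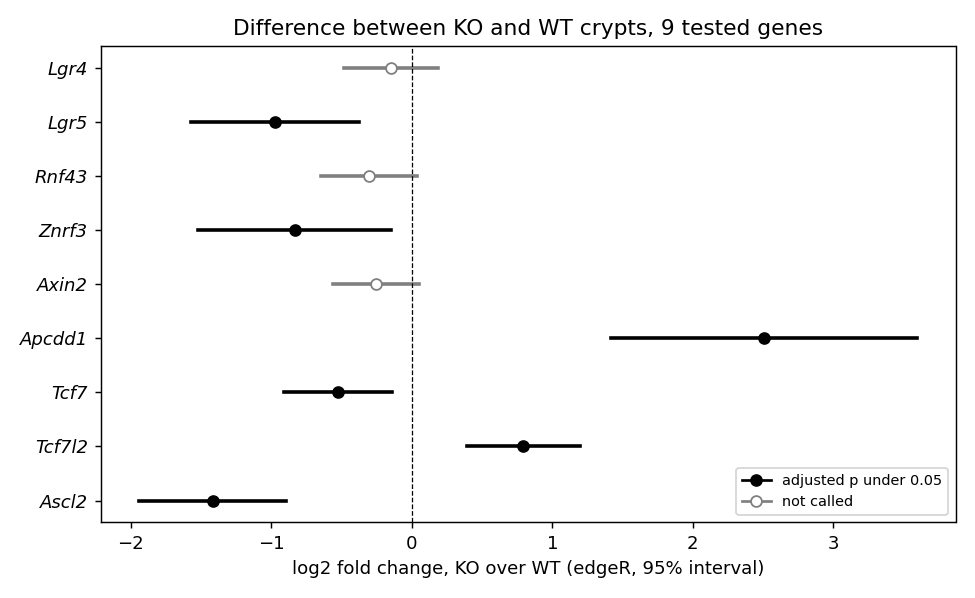
Log2 fold change of the 9 tested genes, KO over WT (x axis), with 95% intervals from edgeR as bars; filled points have an adjusted p under 0.05 and open points do not. Ascl2, at −1.42, is lowest and Apcdd1, at 2.51, is highest.

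Among the intracellular and membrane inhibitors, Axin2 and Apcdd1 did not behave alike. Axin2, a scaffold of the beta-catenin destruction complex and the usual readout of Wnt activity, had 86.2, 113, 106 and 134 CPM in KO and 130, 127, 135 and 131 CPM in WT. The WT libraries lay close together, KO replicates 1 to 3 lay below all of them, and KO replicate 4 lay within their range. In FPKM, without TMM factors, every KO library lay below every WT library, at 16.95 to 32.07 in KO and 32.44 to 39.64 in WT. The log2 fold change was −0.25 (SE 0.13, 95% interval −0.56 to 0.05), not called by edgeR (adjusted p = 0.147). Without KO replicate 4 it was −0.41 and called (edgeR, adjusted p = 0.0393). In replicates 1 to 3 alone, which leave out replicate 4 of both groups, it was −0.40 and not called (edgeR, adjusted p = 0.0801). Nor was it called with a replicate block (−0.27, edgeR, adjusted p = 0.0921).

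Apcdd1, a membrane glycoprotein that inhibits Wnt signalling at the receptor, had 10.98, 16.3, 3.99 and 7.20 CPM in KO, against 2.75, 1.35, 1.73 and 0.936 CPM in WT. These values rest on 128, 184, 40 and 77 counts in KO and 39, 15, 29 and 17 counts in WT, so the WT level is the least precise among the called members. Every KO library was above every WT library, and replicates 1 and 2 were the highest of the KO libraries. The mean was 9.61 ± 5.28 CPM in KO and 1.69 ± 0.777 CPM in WT (SD, n = 4 each). The log2 fold change was 2.51 (SE 0.48, 95% interval 1.42 to 3.59), with an adjusted p of 0.00315 by edgeR. Without KO replicates 1 and 2 it was 1.67 and still called (edgeR, adjusted p = 0.0319).

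The transcription factors gave calls in both directions. Ascl2, a basic helix-loop-helix factor and Wnt target that drives the stem cell programme in crypts, had 10.7, 22.01, 19.6 and 22.5 CPM in KO, against 56.7, 50.3, 38.8 and 54.2 CPM in WT. The highest KO library was well below the lowest WT library, replicate 3. The mean was 18.7 ± 5.48 CPM in KO and 49.99 ± 7.91 CPM in WT (SD, n = 4 each), 2.67-fold lower in KO. Its log2 fold change was −1.42 (SE 0.23, 95% interval −1.94 to −0.89) with an adjusted p of 0.00176 by edgeR, and it was the only member called lower that kept its call under every alternative run, at −1.66 to −1.26.

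Tcf7 encodes TCF1, a TCF/LEF factor of crypts and of T cells. It had 20.9, 22.8, 31.7 and 22.1 CPM in KO and 36.2, 30.9, 30.4 and 42.9 CPM in WT. KO replicate 3 lay above WT replicates 2 and 3, and the other KO libraries lay below all WT libraries. The log2 fold change was −0.53 (SE 0.17), with an adjusted p of 0.0296 by edgeR. The call was lost without WT replicate 1 (adjusted p = 0.0673), without WT replicate 4 (adjusted p = 0.0821), in replicates 1 to 3 alone (−0.41, adjusted p = 0.092) and without KO replicates 1 and 2 (−0.46, adjusted p = 0.0998). KO replicate 3, the highest KO library for Tcf7, also had the highest summed T cell markers, 1978 CPM, against 917, 385 and 245 CPM in KO replicates 1, 2 and 4 and 502, 536, 415 and 60.3 CPM in WT. The part of T cells in the Tcf7 level was not tested.

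Tcf7l2 encodes TCF4, the TCF/LEF factor on which crypt maintenance depends, and went the other way. It had 49.9, 34.1, 55.4 and 45.5 CPM in KO, against 26.2, 27.4, 32.2 and 20.9 CPM in WT. The lowest KO library, replicate 2, was just above the highest WT library, replicate 3. In FPKM, without TMM factors, the groups overlapped, at 7.56 to 15.74 in KO and 6.19 to 10.14 in WT. The mean was 46.2 ± 9.04 CPM in KO and 26.7 ± 4.66 CPM in WT (SD, n = 4 each), with a log2 fold change of 0.79 (SE 0.18, 95% interval 0.39 to 1.20) and an adjusted p of 0.00624 by edgeR. With scaling to total counts it was 0.54 and no longer called (edgeR, adjusted p = 0.0854).

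Lef1, the remaining member of the TCF/LEF family in the set, had 0, 2, 7 and 6 counts in KO and 6, 4, 11 and 3 counts in WT. At this depth a difference was not detectable. Without the filter its log2 fold change was −0.22 with a 95% interval of −2.01 to 1.58 (edgeR, adjusted p = 0.862), which is wide enough to hold the changes of all the other members except Apcdd1.

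Because Tcf7 and Tcf7l2 changed in opposite directions, the make-up of the TCF/LEF transcripts differed between genotypes. Per gene length, Tcf7l2 made up 50.4 to 61.8% of the summed FPKM of Tcf7, Tcf7l1, Tcf7l2 and Lef1 in KO and 24.7 to 41.2% in WT. Tcf7 made up 37.7 to 48.8% in KO and 57.1 to 74.1% in WT. The ratio of Tcf7l2 to Tcf7 was 1.64, 1.03, 1.20 and 1.40 in KO and 0.491, 0.617, 0.722 and 0.333 in WT, above 1 in every KO library and below 1 in every WT library. The sum of the family was 15.01 to 29.6 FPKM in KO and 20.7 to 25.1 FPKM in WT, with the WT range inside the KO range. The ratio of Ascl2 to Axin2, both Wnt targets, also separated the groups, at 0.330 to 0.523 in KO and 0.771 to 1.18 in WT. These ratios were formed from members with known changes, and they are given as descriptions without a test.

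**Figure D3:**
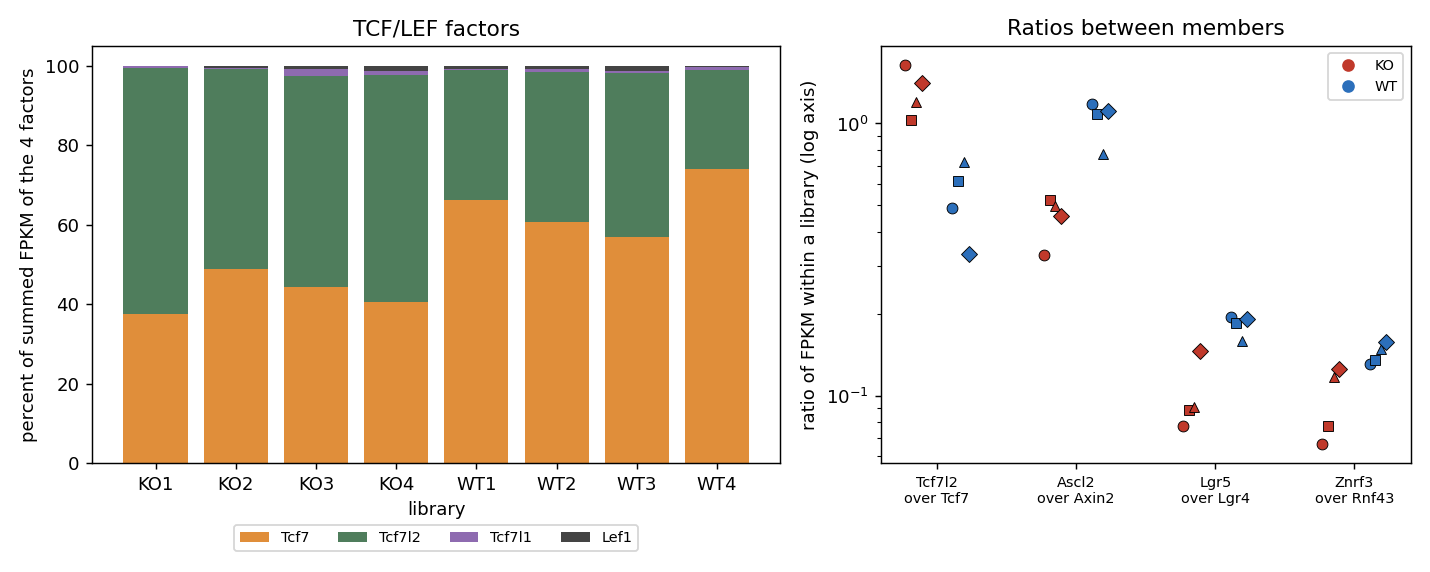
Left, share of each TCF/LEF factor in their summed FPKM (percent, y axis) in each library, KO libraries left of WT libraries. Right, ratio of FPKM between pairs of members in each library (log axis), KO in red left of WT in blue and replicates 1 to 4 as circle, square, triangle and diamond; Tcf7l2 over Tcf7 is above 1 in every KO library and below 1 in every WT library.

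The order of the mean levels per gene length differed between the groups. In KO it ran Lgr4 (28.5 ± 6.94 FPKM), Axin2 (24.8 ± 6.47), Rnf43 (15.7 ± 3.31), Ascl2 (11.49 ± 4.09), Tcf7l2 (11.4 ± 3.38), Tcf7 (8.83 ± 2.95), Apcdd1 (3.13 ± 1.45), Lgr5 (2.98 ± 1.496), Znrf3 (1.59 ± 0.780) and Lef1 (0.145 ± 0.130). In WT it ran Lgr4 (37.8 ± 7.76 FPKM), Ascl2 (36.3 ± 4.36), Axin2 (35.4 ± 3.18), Rnf43 (22.9 ± 5.26), Tcf7 (14.99 ± 2.56), Tcf7l2 (7.83 ± 1.67), Lgr5 (6.87 ± 1.29), Znrf3 (3.34 ± 1.05), Apcdd1 (0.693 ± 0.302) and Lef1 (0.178 ± 0.112), all SD with n = 4 per group. In KO the library ranges of neighbours overlapped from Lgr4 down to Tcf7 and again from Apcdd1 down to Znrf3. In WT the ranges of neighbours were apart between Axin2 and Rnf43, between Tcf7 and Tcf7l2, and at each step from Lgr5 down to Lef1. Ascl2 stood at place 4 in KO, beside Rnf43 and Tcf7l2, and at place 2 in WT, beside Lgr4 and Axin2. Apcdd1 stood at place 7 in KO and at place 9 in WT.

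Promoter sequence was read for 7 members in the RefSeq promoter table, over the 250 bases before each annotated start on GRCm38.p6, 13 windows in all. Lgr5, Znrf3 and Apcdd1 were not among them. The TCF/LEF heptamers ATCAAAG and TTCAAAG, searched on both strands, were in 0 of the 13 windows and in 7.479% of 32851 windows of all genes. The shorter core CAAAG, also searched on both strands and contained in the heptamers, was in 6 of the 13 and in 48.58% of all. The 6 belong to 2 members, 4 of them to Lef1, where some windows overlap, and 2 to Tcf7l2, and the other 5 members have no core in these windows. The E-box CAGCTG, which reads the same on both strands and to which Ascl2-type factors can bind, was in 2 of the 13 and in 13% of all. A window of Tcf7l2, higher in KO, and that of Ascl2, lower in KO, are shown because these are the factors whose CPM separated the groups in opposite directions. The Tcf7l2 window is that of its more upstream start, chr19:55741560-55741809 on the plus strand, 72.8% G and C, with 1 core in capitals that begins 111 bases before the start. Its other window, chr19:55895071-55895320 and 40.8% G and C, has 1 core that begins 14 bases before the start and is not printed. The Ascl2 window is chr7:142969265-142969514 on the minus strand, 67.6% G and C, and holds none of these letters.
Tcf7l2 promoter: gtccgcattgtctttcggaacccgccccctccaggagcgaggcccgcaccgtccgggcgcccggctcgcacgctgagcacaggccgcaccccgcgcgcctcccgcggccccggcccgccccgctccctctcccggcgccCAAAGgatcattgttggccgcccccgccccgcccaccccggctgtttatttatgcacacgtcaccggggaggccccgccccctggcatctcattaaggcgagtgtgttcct
Ascl2 promoter: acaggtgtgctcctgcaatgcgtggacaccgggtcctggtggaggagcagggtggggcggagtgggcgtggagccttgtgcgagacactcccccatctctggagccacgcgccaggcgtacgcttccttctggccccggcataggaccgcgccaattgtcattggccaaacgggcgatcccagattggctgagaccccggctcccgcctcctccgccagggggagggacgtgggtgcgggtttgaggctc
These letters describe the windows alone, since Wnt-responsive elements also lie in enhancers and introns that were not searched.

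The rest of the pathway was followed in lists ordered by role. The counts called in each list stand beside 23.1% lower and 24.2% higher over all tested genes. Of 13 tested R-spondins and Wnt ligands, 0 were lower and 2 were higher in KO by edgeR (DESeq2 gave the same counts, and at an unadjusted p under 0.05 the counts were 1 and 2). They were Wnt6 (log2 fold change 2.27, adjusted p = 0.00164) and Wnt4 (1.38, adjusted p = 0.0161), at means of 2.48 and 3.68 CPM in KO and 0.500 and 1.40 CPM in WT. Wnt4 lost its call with scaling to total counts (adjusted p = 0.0639) and in replicates 1 to 3 alone (adjusted p = 0.0563). Wnt3, the ligand that Paneth cells supply to Lgr5 cells, had a log2 fold change of 0.05 (edgeR, adjusted p = 0.819) and averaged 11.4 ± 2.11 CPM in KO and 10.97 ± 0.786 CPM in WT (SD, n = 4 each).

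Of 14 tested Frizzled and LRP receptors, 2 were lower and 2 higher in KO by edgeR. Ror2, a receptor of Wnt signals outside the beta-catenin branch, was lower at −1.03 (adjusted p = 0.00217), and so was Fzd6 at −0.77 (adjusted p = 0.0373). Fzd4 was higher at 1.44 (adjusted p = 0.00356), as was Fzd5, a Frizzled of the intestinal epithelium, at 0.41 (adjusted p = 0.021). The Fzd6 call was lost without KO replicate 1 or 2 or without WT replicate 1, 2 or 4 (edgeR, adjusted p 0.0565 to 0.105). It was also lost without KO replicates 1 and 2 together (edgeR, adjusted p = 0.136). The Fzd5 call was lost without KO replicate 1, 2 or 4 or WT replicate 1 or 2 (edgeR, adjusted p 0.0533 to 0.107) and with scaling to total counts. It was also lost with upper-quartile scaling (edgeR, adjusted p = 0.0596), in replicates 1 to 3 alone (0.0617) and without KO replicates 1 and 2 together (0.122). With scaling to total counts 4 receptors were lower and 1 higher, and the list median of 0.04 was −0.22. Without KO replicates 1 and 2, 1 was lower and 1 higher. Of the secreted and membrane inhibitors such as the Dickkopf and SFRP proteins, 13 were below the filter and 0 of the 4 tested were called by edgeR, by DESeq2 or at an unadjusted p under 0.05.

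Of 18 tested genes of the destruction complex and Dishevelled, 1 was lower and 2 were higher in KO by edgeR, with a list median of 0.15 that turned to −0.13 with scaling to total counts, where 3 were lower and 0 higher. With a replicate block 2 were lower and 3 higher, and without KO replicates 1 and 2, 0 were lower and 1 was higher. Csnk1e, a casein kinase, was lower at −0.60 (adjusted p = 0.0196). The kinases Gsk3b and Gsk3a were higher at 0.48 (adjusted p = 0.0138) and 0.35 (adjusted p = 0.0448). By edgeR, the call of Csnk1e was lost without WT replicate 3 (adjusted p = 0.0544) and without KO replicates 1 and 2 (0.0847). That of Gsk3b was lost without KO replicate 1 (0.0566) or 4 (0.0612), in replicates 1 to 3 alone (0.063) and with scaling to total counts (0.365). That of Gsk3a was lost without any 1 library but KO replicate 3 (0.0697 to 0.176). It was also lost with total-count or upper-quartile scaling, without the filter, in replicates 1 to 3 alone and without KO replicates 1 and 2. Ctnnb1, which encodes beta-catenin, had a log2 fold change of 0.17 (edgeR, adjusted p = 0.305). Of 14 tested coactivators and TLE corepressors, 3 were lower and 4 higher, and with a replicate block 3 were lower and 7 higher, with Tle4, Crebbp and Ep300 gained. Tle3, a Groucho corepressor that binds TCF factors, was higher at 1.37 (adjusted p = 0.00116), with 160 ± 37.2 CPM in KO and 61.8 ± 10.3 CPM in WT (SD, n = 4 each). Ctnnbip1, which blocks the binding of beta-catenin to TCF factors, was higher at 0.88 (adjusted p = 0.00225). Smarca4, a chromatin remodeller, and Pygo2, a beta-catenin coactivator, were lower at −0.63 (adjusted p = 0.00578) and −0.35 (adjusted p = 0.00975) by edgeR.

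Of 12 tested Wnt targets of the crypt outside the members, 6 were lower and 0 higher in KO by edgeR, beside 6 and 1 by DESeq2 and 7 and 1 at an unadjusted p under 0.05, with a list median of −0.44. Ephb2 and Ephb3, the receptors that position cells along the crypt, were lower at −0.92 (adjusted p = 0.00228) and −0.95 (adjusted p = 0.00282). Sox9, a Wnt target of the crypt base, was not called (−0.32, adjusted p = 0.212). Of 11 tested stem cell markers outside Wnt feedback, 6 were lower and 1 higher, and 4 were lower and 0 higher without KO replicates 1 and 2. Igfbp4 and Cdca7 were lower at −1.40 (adjusted p = 0.00137) and −1.02 (adjusted p = 0.00279). Tspan8 was higher at 0.64 (adjusted p = 0.0215), a call lost without KO replicate 1 or 2 or WT replicate 1, 3 or 4 (edgeR, adjusted p 0.0503 to 0.0835). That call was also lost in replicates 1 to 3 alone (edgeR, adjusted p = 0.0823) and without KO replicates 1 and 2 together (0.201). Olfm4, a widely used marker of the crypt base, was not called, with a log2 fold change of 0.47 (SE 0.45, edgeR, adjusted p = 0.413). It had 267, 574, 191 and 402 CPM in KO and 179, 165, 512 and 177 CPM in WT. Without WT replicate 3 it was called higher in KO, at 1.04 (edgeR, adjusted p = 0.0431).

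**Figure D4:**
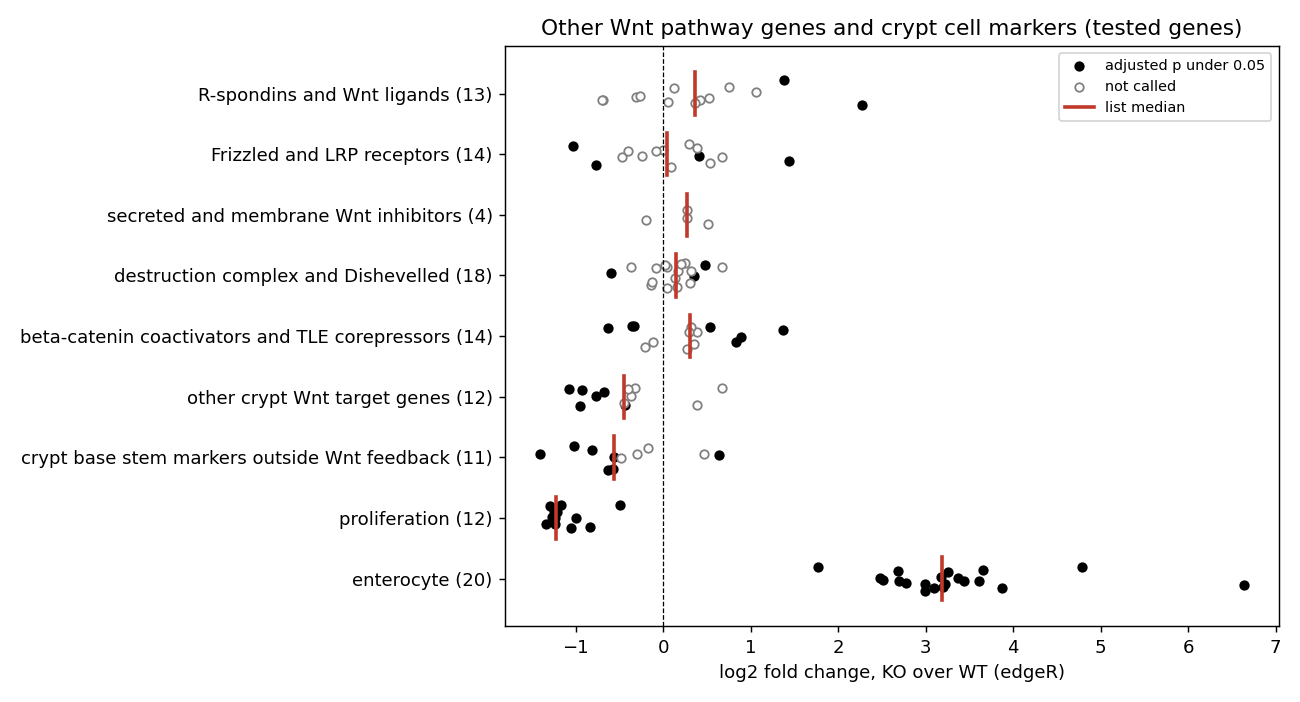
Log2 fold change, KO over WT (x axis), of the tested genes of each list, with the number tested in brackets; filled points have an adjusted p under 0.05, open points do not, and red ticks are list medians. The medians of the ligands to the coactivators lie between 0.04 and 0.36, those of the other Wnt targets and stem markers at −0.44 and −0.56, beside −1.22 for proliferation and 3.19 for enterocyte markers.

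Some lists of cell type markers also differed between the groups, and others gave few calls or none. All 20 enterocyte markers were higher in KO by edgeR, and their summed level was 109500, 92050, 32590 and 52070 CPM in KO and 13350, 13490, 4769 and 2407 CPM in WT. KO replicates 1 and 2, highest here, were also highest for Apcdd1 and lowest for Lgr5 and Znrf3. All 12 proliferation markers were lower in KO, at a summed 775 to 1299 CPM in KO and 2210 to 2669 CPM in WT. None of the 14 tested T cell markers was called by edgeR, though all had a positive log2 fold change, 1.06 to 1.62. Their summed levels, given above with Tcf7, spread widely within each group. By DESeq2, and at an unadjusted p under 0.05, 1 was higher. In replicates 1 to 3 alone 3 were higher, and with a replicate block 8 were. Of the secretory cell markers, 6 of 6 for tuft cells, 5 of 6 for goblet cells, 4 of 7 for enteroendocrine cells and 2 of 10 for Paneth cells were higher in KO by edgeR. Their summed levels in KO and WT were 46.2 to 59.6 and 12.8 to 22.4 CPM for tuft cells, and 8428 to 14210 and 1519 to 4043 CPM for goblet cells. They were 671 to 853 and 346 to 608 CPM for enteroendocrine cells, and 11000 to 34530 and 9986 to 14330 CPM for Paneth cells, the last overlapping. Without KO replicates 1 and 2, 0 enteroendocrine and 0 Paneth markers were called higher. Of 8 tested fibroblast and stromal markers, 2 were higher, at a summed 316 to 409 CPM in KO and 136 to 302 CPM in WT. Fbln1 carried much of that sum, with 315, 272, 131 and 116 CPM in KO and 91.3, 90.6, 69.8 and 73.6 CPM in WT. Without Fbln1, a split made after its values were seen, the sums overlapped, at 43.7 to 277 CPM in KO and 45.1 to 232 CPM in WT. Epithelial markers, listed for the labelled tissue, summed to 14030 to 23080 CPM in KO and 10750 to 14130 CPM in WT. Of the 10 tested, 4 were higher in KO by edgeR, namely Vil1 (1.75), Krt20 (2.45), Cldn7 and Epcam, and Krt18 was lower. Without KO replicates 1 and 2, 1 was lower and 1 higher. No marker of these lists was at 0 in all libraries. The part of cell composition in the member changes was not tested.

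**Figure D5:**
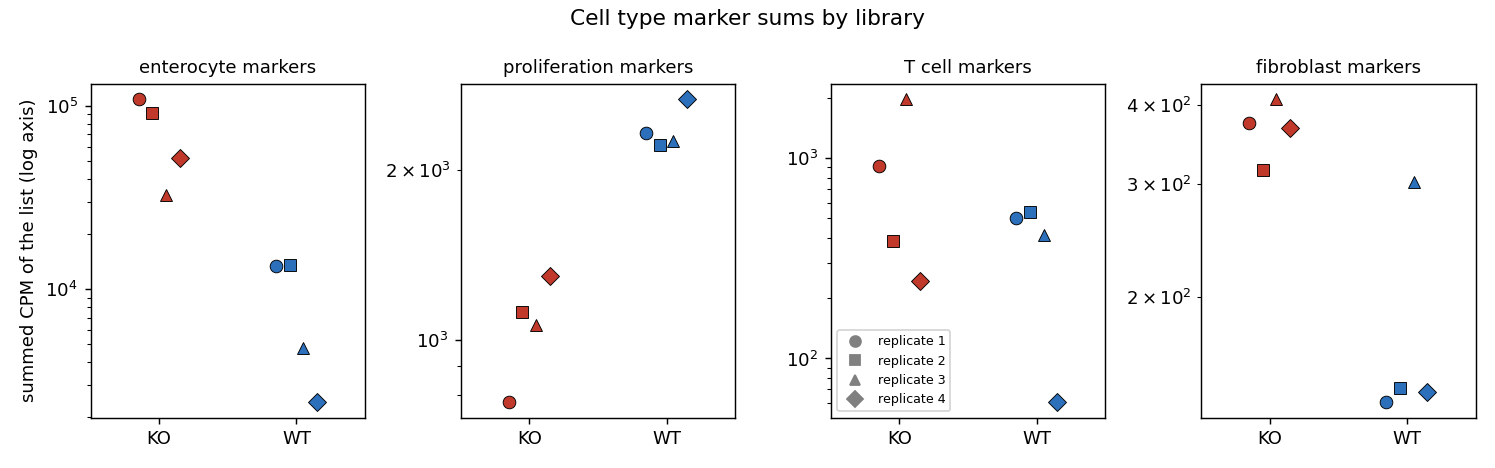
Summed CPM (log axis, one scale per panel) of enterocyte, proliferation, T cell and fibroblast markers in each library, KO in red left of WT in blue, with the replicate number by shape. Enterocyte, proliferation and fibroblast sums do not overlap between the groups, the last only with Fbln1 included, T cell sums do overlap, and the KO libraries with the highest enterocyte sums are replicates 1 and 2.

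The genes whose log2 CPM followed a member most closely over the 8 libraries were found among 10701 genes with a mean of at least 50 counts. They are given as a description, since both genotypes are in the 8 libraries and a shared genotype difference raises every such correlation. For Lgr5 they were Helq (Pearson r = 0.992), Odf2 (0.990), Dmwd (0.989), Zfp141 (0.989) and Trip6 (0.983), all of them lower in KO by edgeR. For Apcdd1 they were Nags (0.989), Pccb (0.989), Defa32 (0.987), Hmg20b (0.986) and Rnd2 (0.985), all of them higher in KO. For Axin2 they were Zbtb8a (0.983), Esam (0.976), Fam117b (0.976), Slco3a1 (0.972) and Pkn3 (0.968), none of them called. For Tcf7 they were Fermt1 (0.979), Smg8 (0.973), Snupn (0.973), Dsg3 (0.965) and Rbm43 (0.964), of which Fermt1 (−0.47, adjusted p = 0.0302) and Dsg3 (−2.58, adjusted p = 0.0223) were called lower by edgeR. Defa32 belongs to the near-identical alpha-defensins, whose reads can be split between copies.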

How the data were processed

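RNA from small intestinal crypts was sequenced as 8 libraries, and genotype and replicate number came from the labels. Per the file headers, the authors' columns hold read counts for each gene in each library; since 8.04 to 9.18% of the values were not whole, they were treated as estimated counts made by the authors and rounded. A second set of deposited columns, with no unit in the header, was taken as FPKM, since each value scaled with its count over the library total. Per the submitters' processing notes, HISAT2 and DESeq2 were used, with neither role nor version given. Counting program, genome build, annotation and strandedness are not stated in the sources used here.

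The main test was that of edgeR 4.0.16 under R 4.3.3 (filterByExpr with a minimum count of 10, TMM factors, glmQLFit and glmQLFTest, genotype as sole term), with Benjamini-Hochberg adjustment over 12908 genes and a threshold of 0.05. The script was tested on simulated counts. CPM carry TMM factors, and FPKM carry the authors' scaling alone. Library depth was 9481201 to 16231099 counts. The closest pair of libraries, WT replicates 1 and 2, differed by 6.05 times the sampling variance and the other pairs of a group by 29.1 to 118 times. No pair agreed within sampling noise, and whether WT replicates 1 and 2 share an animal or RNA was not tested. Same-numbered libraries deviated together (r 0.311 to 0.524, against −0.478 to 0.447 for different numbers), though these ranges overlapped. For 7 of the 8 libraries the closest library of the other group had the same number, which was taken as a sign of pairing. No label explains the numbers, so the main fit has no block and the fit with a replicate block is an alternative.

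The members and lists were chosen with earlier results of these data known. All members are named; in each list up to 4 called genes with the smallest p, 2 per direction, are named, and Wnt3, Ctnnb1, Sox9, Olfm4, Tle4, Crebbp, Ep300 and Fbln1 were added after their values were seen. Nearest genes exclude predicted genes. Sequences are from RefSeq (GRCm38.p6), which 17522 of 17634 gene numbers matched, and 3′ UTRs from GENCODE M21.

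Alternatives were total-count, upper-quartile and median-ratio scaling, no filter, a mean of at least 50 counts, the DESeq2 1.42.0 Wald test, a replicate block, replicates 1 to 3 alone, and each library left out. Leaving out KO replicates 1 and 2 together was chosen after seeing the data.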

Additional observations from a re-analysis of the deposited data

How the results depend on the processing

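Over the alternatives run, no member changed the sign of its log2 fold change. Lgr4 was never called, Apcdd1 and Ascl2 kept their calls throughout, and of all recomputed values and counts 195 were unchanged in direction and call, or within 1.5 times for counts, while 14 lost and 3 gained a call and 4 counts moved further. Rnf43 was called in the fit with a replicate block (−0.29) and with total-count scaling (−0.57), where Tcf7l2 lost its call (0.54) and 1 member was called higher in place of 2. The replicate block changed no other call of a member. Testing genes with a mean of at least 50 counts ended the call of Znrf3 (−0.80), and replicates 1 to 3 alone that of Tcf7 (−0.41). Without KO replicates 1 and 2, 1 member was called lower in place of 4, with Lgr5 at −0.68, Znrf3 at −0.49 and Tcf7 at −0.46, none of them called. Leaving out each library in turn gave log2 fold changes of −1.15 to −0.64 for Znrf3, −0.68 to −0.42 for Tcf7 and −0.41 to −0.20 for Axin2, and 2 to 5 members called lower. For these changes of call the cause was not tested, except that the fits without libraries hold fewer samples. With total-count scaling 65.8% of called genes were lower, against 48.7% with TMM factors. Lef1, below the filter, has no alternatives beside the unfiltered fit. Depth limits Lef1 and the WT level of Apcdd1 most.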
